A study of Mus musculus with 24 samples.

Results

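The livers of female mice that carry a deletion of the Cyp2b genes and were fed normal chow were compared with the livers of wild-type females on the same chow. The comparison rests on 6 of the 24 libraries of the series, chosen by their titles: 3 titled KO and ND, and 3 titled WT and ND. KO ND stands for female C57BL/6 mice lacking Cyp2b9, Cyp2b10 and Cyp2b13 on normal chow for 10 weeks, and WT ND for wild-type C57BL/6 females on that chow for the same time. KO HFD and WT HFD are the same 2 genotypes on a diet with 60% fat for 10 weeks, with 3 female libraries each, and they enter here only to share the estimate of the spread and to set the genotype difference on chow beside that on the fat diet. The sources used here do not give how the deletion was made, the number of founders of the line, the age of the mice or the hour at which livers were taken. Nor is it stated that each library is a separate animal, and p-values below therefore cover only the variation seen among the libraries. In 6 of the 12 female libraries, 3 of them KO ND, the genotype characteristic contradicts the title, and the titles were followed.

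Cytochromes P450 of the Cyp2b subfamily are membrane-bound oxygenases of the endoplasmic reticulum that act on drugs, steroids and polyunsaturated fatty acids. They take electrons from P450 oxidoreductase, and the nuclear receptors CAR and PXR switch several of them on. In mouse liver Cyp2b9 and Cyp2b13 are mainly female enzymes, while Cyp2b10 is the member best known for induction by xenobiotics.

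The 6 libraries held 2005120 to 2650404 gene counts each, and 11830 genes passed a filter on low counts. Levels are given below as CPM, counts scaled to library size after TMM normalization, by library number 1, 2 and 3. A gene is called where the edgeR quasi-likelihood test gave a p below 0.05 after Benjamini-Hochberg adjustment over all 11830 genes. The female-specific Xist had 763 to 1794 counts in each of the 6 libraries, and the Y-linked genes measured had at most 2 counts in any of them. The libraries were not alike in quality: transcripts of the mitochondrial genome took 4.0%, 5.41% and 7.17% of the counts in KO ND livers, against 13.96%, 4.91% and 5.56% in WT ND livers. WT ND 1 thus stood apart from the rest in this share. Without it 7 genes were called, against 15 with it. The count fell further without WT ND 3 or KO ND 3, so this loss does not single out WT ND 1.

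The targeted genes were examined first. Cyp2b13 had 0 counts in each of the 3 KO ND libraries, against 527, 452 and 283 CPM (675 to 1138 counts) in WT ND libraries. Set against a floor of 3 counts over the KO ND group, it was at least 969-fold lower in KO ND livers (adjusted p = 2.88e-05, edgeR). Cyp2b9 had 2.17, 2.69 and 6.87 CPM in KO ND livers, against 393, 499.6 and 456 CPM in WT ND livers, a log2 difference of -6.81 ± 0.45 (SE, n = 3 each, edgeR adjusted p = 3.31e-06). Both genes were thus lower in every KO ND library than in any WT ND library, and the titles match the genotype that they name. Cyp2b10, the xenobiotic-induced member, was low in all chow livers. It had 1.74, 2.69 and 6.87 CPM in KO ND livers, against 15.7, 45.9 and 32.3 CPM in WT ND livers. The groups did not overlap, but at 4 to 17 counts in KO ND libraries and 34 to 92 in WT ND libraries the difference did not pass (log2 -3.02 ± 0.87, adjusted p = 0.424, edgeR). The few counts left on Cyp2b9 and Cyp2b10 in KO ND libraries were almost equal in number, 28 and 27 in sum, and reads of near-identical Cyp2 genes may have been placed on either, which was not tested.

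Few transcripts passed the threshold beside the targeted ones. In all 15 genes, 0.127% of those tested, were called between KO ND and WT ND: 8 higher (0.0676%) and 7 lower (0.0592%) in KO ND livers, and 13 of them were not targeted. At an unadjusted p under 0.05 there were 749 genes (6.33%), 352 of them higher (2.98%) and 397 lower (3.36%). The 3 KO ND libraries lay all above or all below the 3 WT ND libraries for 1335 genes (11.3%). The median log2 difference over all genes tested was -0.02, with 5611 estimates above 0 and 6219 below it. With a biological coefficient of variation of 0.2692 (root of the common dispersion), the called difference closest to 0 was -1.21, of Hexim1.

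**Figure D1:**
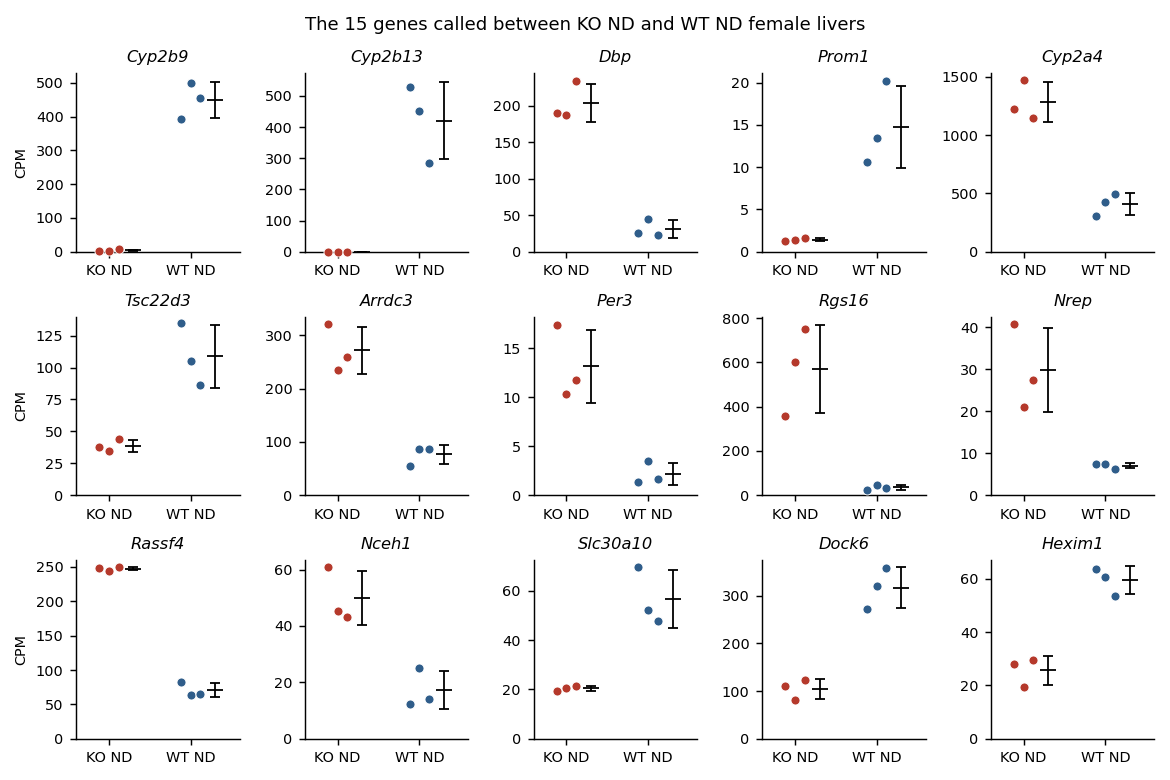
Levels in CPM (y axis, linear, from 0, scaled for each gene) of the 15 called genes in the 3 KO ND and the 3 WT ND female livers; each point is a library, and the bar with whiskers beside the points is the group's mean and SD. In all 15 panels the points of the groups do not overlap, and for Cyp2b13 the KO ND points are at 0.

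The non-targeted gene with the smallest p was Dbp, which encodes D-site binding protein, a PAR bZIP transcription factor driven by the circadian clock. It lies at chr7:45705088-45710203 on the plus strand of GRCm38. Dbp had 191, 187 and 234 CPM in KO ND livers, against 25.9, 44.9 and 23.1 CPM in WT ND livers. Its lowest KO ND library was thus far above its highest WT ND library, and it rose by 2.71 ± 0.29 on the log2 scale (adjusted p = 0.000499, edgeR). The end of Dbp overlaps Sphk2 on the opposite strand, and strand use in counting is not stated, so reads from the overlap cannot be assigned to either gene. Sphk2 averaged 164 CPM in KO ND livers and 62.8 CPM in WT ND livers. Per3, a period protein of the repressor arm of the clock, rose as well. It had 17.4, 10.3 and 11.7 CPM in KO ND livers, against 1.39, 3.49 and 1.68 CPM in WT ND livers (23 to 40 counts in KO ND libraries and 3 to 7 in WT ND libraries). The log2 difference of Per3 was 2.58 ± 0.42 (adjusted p = 0.0268, edgeR), and the groups did not overlap, though its counts were the smallest of the genes that rose. The call of Per3 was lost without KO ND 1, KO ND 3, WT ND 1 or WT ND 3 (adjusted p up to 0.151, edgeR), while Dbp and Cyp2a4 stayed called without any of the 6 chow libraries.

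The clock works as a loop in which the activators Arntl (BMAL1) and Clock switch on the period, cryptochrome and Rev-erb repressors, which then act against the activators. The same activators drive Dbp and its relatives Tef and Hlf, which bind D-box elements in output genes, in liver including Cyp2a4 and Cyp2a5. Of 20 clock genes listed, 18 were tested, 2 were called higher (Dbp and Per3) and 0 lower, against 0.127% of all genes called. Estimates were above 0 for 11 and below 0 for 7, with a median of 0.53, against -0.02 over all genes. By role, 1 of 4 activators had an estimate above 0 (median -0.47), against 7 of 9 repressors (median 0.53) and 3 of 5 output genes (median 1.0). DESeq2 called Tef (adjusted p = 0.0158) and Arntl (adjusted p = 0.0197) as well as Dbp and Per3, so 3 were higher and 1 lower with it. Arntl and Tef did not pass with edgeR. Arntl had 2.61, 1.35 and 1.62 CPM in KO ND livers, against 7.41, 19.0 and 9.66 CPM in WT ND livers (log2 -2.65 ± 0.66, adjusted p = 0.178, edgeR). Its groups did not overlap, and its level in KO ND was near the limit of detection. Tef, the relative of Dbp, had 133, 197 and 158 CPM in KO ND livers, against 84.7, 97.8 and 62.1 CPM in WT ND livers (log2 1.0 ± 0.23, adjusted p = 0.141, edgeR). Among the 18 tested clock genes the libraries of the groups stood apart for 11, KO ND above WT ND in 7 and below it in 4, against 11.3% of all genes. This list, too, was drawn up with earlier results of these data known, so its shares are description only.

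A further 18 genes were listed as clock kinases and rhythmic outputs of liver, of which 16 were tested. Estimates were above 0 for 14 and below 0 for 2, with a median of 0.93. The 2 called members, Rgs16 and Arrdc3, were both higher in KO ND livers, against 0.127% of all genes called. Every KO ND library was above every WT ND library in 10 members, against 5.18% of all genes. For Leo1 and Insig2 every KO ND library was below every WT ND library, against 6.1% of all genes. Members were listed with earlier results of these data known, so these shares describe the list and test nothing. Por, the oxidoreductase that hands electrons to every microsomal P450, had 517, 532 and 617 CPM in KO ND livers, against 201, 309.9 and 234 CPM in WT ND livers. These groups did not overlap, but Por did not pass with edgeR (log2 1.16 ± 0.24, adjusted p = 0.0816, edgeR). Tspan4, a tetraspanin, averaged 56.5 ± 2.29 CPM in KO ND livers and 26.1 ± 9.74 CPM in WT ND livers (SD, n = 3 each) and did not pass with edgeR (adjusted p = 0.128). Wee1, a kinase that holds back mitosis and a known clock output of mouse liver, had 6.95, 28.3 and 19.4 CPM in KO ND livers, against 1.85, 1.5 and 3.36 CPM in WT ND livers, and did not pass with edgeR either (log2 2.97 ± 0.78, adjusted p = 0.29). DESeq2 called 5 members of the list, all higher: Rgs16, Arrdc3, Por (adjusted p = 0.00162), Tspan4 (adjusted p = 0.0151) and Wee1 (adjusted p = 0.00829).

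Cyp2a4 is a steroid 15-alpha-hydroxylase and, like Cyp2b9, mainly a female enzyme of mouse liver. It lies at chr7:26307169-26315088, 96.5 kb past the end of Cyp2b9, and is the nearest tested protein-coding gene on that side of the deleted cluster. Cyp2a4 had 1227, 1473 and 1144 CPM in KO ND livers, against 305, 428 and 496 CPM in WT ND livers. Every KO ND library was above the highest WT ND library by more than that library's own level, and Cyp2a4 rose by 1.64 ± 0.23 on the log2 scale (adjusted p = 0.00679, edgeR). Its close paralogue Cyp2a5, a coumarin 7-hydroxylase, had 1660.3, 1146 and 1368 CPM in KO ND livers, against 1225, 1305 and 475 CPM in WT ND livers. These groups overlapped (log2 0.47 ± 0.34, 95% interval -0.26 to 1.2, adjusted p = 0.895, edgeR). The coding sequences of Cyp2a4 and Cyp2a5 are nearly identical, so reads could have been split between them or dropped, and the value of each is uncertain for that reason.

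The proximal promoters of Per3, Cyp2a4 and Cyp2a5 are shown because they hold the D-box, the element bound by Dbp, Tef and Hlf, searched as TTATGNAA on both strands in the 300 bases from 250 before to 50 after each RefSeq start. Each line gives the 250 bases before the start, on the gene's own strand, from RefSeq on GRCm38.p6, with the matches in capitals: Per3 from chr4:151044666-151044915 on the minus strand, Cyp2a4 from chr7:26306942-26307191 and Cyp2a5 from chr7:26835089-26835338, both on the plus strand.
Per3: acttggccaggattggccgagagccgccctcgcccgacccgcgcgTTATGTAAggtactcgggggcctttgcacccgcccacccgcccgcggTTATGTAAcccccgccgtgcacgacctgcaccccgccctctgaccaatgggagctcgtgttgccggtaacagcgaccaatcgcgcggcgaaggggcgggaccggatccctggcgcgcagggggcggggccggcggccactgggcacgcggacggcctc
Cyp2a4: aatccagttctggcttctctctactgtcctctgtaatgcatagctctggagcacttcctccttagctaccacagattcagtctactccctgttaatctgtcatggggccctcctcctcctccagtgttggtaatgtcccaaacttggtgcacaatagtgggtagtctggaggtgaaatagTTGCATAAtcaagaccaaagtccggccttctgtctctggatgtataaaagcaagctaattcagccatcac
Cyp2a5: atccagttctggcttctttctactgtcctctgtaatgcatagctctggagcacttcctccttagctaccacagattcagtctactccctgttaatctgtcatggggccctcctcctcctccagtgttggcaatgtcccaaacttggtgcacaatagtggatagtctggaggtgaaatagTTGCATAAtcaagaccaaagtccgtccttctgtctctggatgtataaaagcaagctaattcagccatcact
Per3 held 2 matches, beginning 205 and 158 bases before the start. Cyp2a4 and Cyp2a5 each held 1, on the opposite strand, beginning 70 and 71 bases before the start. Aligned on the match, the promoters of Cyp2a4 and Cyp2a5 were identical at 245 of 249 bases (98.4%). Of the 13 called genes that were not targeted, 12 had a promoter in the table and 2 of these (Cyp2a4 and Per3) held a D-box, against 3.38% of all 32851 promoters and 243 of the 8562 promoters of tested genes (2.84%). None of the 11 promoters of the next 15 genes by p held one. Among the targeted genes and the Cyp2 genes around them, 5 of 12 promoters held a D-box (Cyp2a4, Cyp2a5, Cyp2b10, Cyp2b19 and Cyp2b23). A match is a string of letters in a window and not a measured binding site. The E-box CACGTG, bound by the clock activators, was in 1 promoter of the called genes (Nceh1, of 12), against 11.9% of the promoters of tested genes and 7.15% of all promoters. The palindromic glucocorticoid element, GNACA and TGTNC with 3 free bases between, was in none of the 12 and in 0.475% of all, and the PPAR element, AGGTCA repeated after 1 free base, in none of the 12 and in 0.0396% of all.

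The neighbours of the deleted genes were taken as the genes within 1000 kb on either side of the 313 kb from Cyp2b10 to Cyp2b9. Of 80 such genes in the table, 33 were tested, and Cyp2a4 alone was called, against 0.127% of all genes. The estimates of the 33 were above 0 for 17 and below 0 for 16, with a median of 0.02, close to the median of all genes. The other Cyp2 genes of the region did not pass. Cyp2a12, a steroid hydroxylase of the liver, had 520.1, 557 and 532 CPM in KO ND livers, against 733, 637 and 627 CPM in WT ND livers (log2 -0.31 ± 0.18, adjusted p = 0.847, edgeR). Every KO ND library of Cyp2a12 was below every WT ND library, by a small margin. Cyp2a22 (log2 -0.86 ± 0.54), Cyp2f2 (log2 -0.43 ± 0.33) and Cyp2g1 (log2 0.26 ± 0.49) had overlapping groups. Cyp2b19, Cyp2b23, Cyp2s1 and Cyp2t4 had too few counts to be tested. On the fat diet all 6 tested Cyp2 neighbours had estimates above 0 (median 0.55), against 3 of 6 on chow (median -0.02); neither diet's set was tested as a set.

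**Figure D2:**
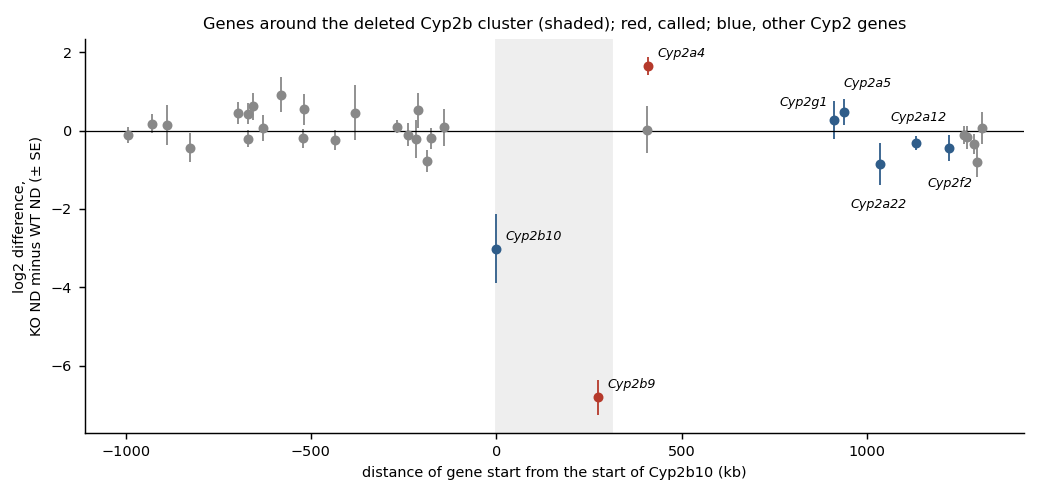
Log2 difference, KO ND minus WT ND (y axis, point and SE), of the tested genes around the deleted cluster, placed by the distance of their start from the start of Cyp2b10 (x axis, kb); red points are called, blue points are other Cyp2 genes, grey points are other genes and the shaded span is the cluster. Cyp2b13, at 0 counts in KO ND, is not drawn. Cyp2a4 at 1.64 is the called gene outside the shaded span.

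Rgs16 showed the largest difference among the genes that rose. It encodes a regulator of G-protein signalling that speeds the shut-off of Gi and Gq proteins, and lies at chr1:153740349-153745468. Rgs16 had 357, 600.5 and 752 CPM in KO ND livers, against 23.2, 47.9 and 34.4 CPM in WT ND livers. The groups were far apart, and the log2 difference was 4.02 ± 0.58 (adjusted p = 0.0268, edgeR). The 3 KO ND libraries also differed widely among themselves, and the call of Rgs16 was kept without KO ND 1 and lost when any other chow library was left out (adjusted p up to 0.189, edgeR). Of 11 Rgs genes listed, 6 were tested, and 4 had estimates above 0. Rgs16 was the only one called, against 0.127% of all genes, in a list chosen with earlier results of these data known.

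Arrdc3 and Txnip are alpha-arrestins, adaptor proteins that lead membrane proteins to endocytosis. Arrdc3, linked in mice to beta-adrenergic receptor traffic and energy expenditure, had 321, 235 and 259 CPM in KO ND livers, against 55.1, 86.8 and 87.3 CPM in WT ND livers. The groups did not overlap, and Arrdc3 rose by 1.83 ± 0.28 on the log2 scale (adjusted p = 0.0178, edgeR). Txnip, which binds thioredoxin and limits glucose uptake, had 240.1, 167 and 349.8 CPM in KO ND livers, against 39.4, 76.9 and 78.9 CPM in WT ND livers. Its groups stood apart too, but the difference did not pass with edgeR (log2 1.95 ± 0.41, adjusted p = 0.117), while DESeq2 called it (adjusted p = 0.000888). Gm15441, on the strand opposite Txnip, averaged 252 CPM in KO ND livers and 65.3 CPM in WT ND livers (log2 1.95), nearly the levels of Txnip itself, and reads of Txnip and Gm15441 cannot be told apart without strand. Txn1, the thioredoxin it binds, had a log2 difference of 0.07, which turned below 0 without WT ND 2, WT ND 3 or KO ND 3. Of the 6 tested members of the list, 5 had estimates above 0, and the median was 0.38. EdgeR called 1, against 0.127% of all genes, and the list was chosen with earlier results of these data known. The call of Arrdc3 was kept without KO ND 2 and lost without any other chow library (adjusted p up to 0.0784, edgeR).

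The other genes that rose were Rassf4, Nceh1 and Nrep. Rassf4, a Ras-association domain protein at chr6:116633008-116673952, had 249, 244 and 249 CPM in KO ND livers, against 82.4, 63.9 and 65.5 CPM in WT ND livers (log2 1.81 ± 0.31, adjusted p = 0.0304, edgeR). Its 3 KO ND libraries were almost level with one another and well above all WT ND libraries. The gene 8430408G22Rik (Depp1, known as a FOXO target) lies inside Rassf4 on the opposite strand, and averaged 224 ± 8.61 CPM in KO ND livers and 69.2 ± 6.90 CPM in WT ND livers (SD, n = 3 each), nearly the levels of Rassf4 itself. Strand use in counting is not stated, so reads of Rassf4 and 8430408G22Rik cannot be told apart. Nceh1, which hydrolyses cholesterol esters, had 60.8, 45.4 and 43.3 CPM in KO ND livers, against 12.5, 25.0 and 14.3 CPM in WT ND livers (log2 1.53 ± 0.26, adjusted p = 0.033, edgeR). Nrep, a small protein known from regenerating nerve and from matrix-producing cells, had 40.8, 21.1 and 27.5 CPM in KO ND livers, against 7.41, 7.49 and 6.30 CPM in WT ND livers (log2 2.07 ± 0.34, adjusted p = 0.0268, edgeR). Both sets of libraries stood apart for Nceh1 and for Nrep. Rassf4 lost its call without any of the 6 chow libraries in turn, Nceh1 in 5 of 6 cases (kept without WT ND 2) and Nrep in 5 of 6 (kept without KO ND 2), with adjusted p up to 0.174 (edgeR).

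Among the genes that fell, Prom1 had the largest difference after the targeted genes. It encodes prominin-1 (CD133), a membrane glycoprotein of bile-duct and progenitor cells, at chr5:43993620-44102032. Prom1 had 1.30, 1.35 and 1.62 CPM in KO ND livers, against 10.7, 13.5 and 20.2 CPM in WT ND livers. The groups did not overlap, and Prom1 fell by 3.33 ± 0.46 on the log2 scale (adjusted p = 0.00679, edgeR). In whole liver, fewer cells of a type and less RNA per cell cannot be told apart. Of 14 cholangiocyte and progenitor markers, 3 were at 0 in every library and 5 were tested. All 5 had estimates below 0 (median -0.26), and Prom1 was the only one called, against 0.127% of all genes. The summed level of the 14 markers was 109 to 139 CPM in KO ND livers and 135 to 177 CPM in WT ND livers, which overlap (exact permutation p = 0.2, two-sided, n = 3 each, where 0.1 is the smallest possible). Prom1 lost its call without KO ND 3 or WT ND 3 (adjusted p up to 0.0784, edgeR).

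Tsc22d3, or GILZ, is the glucocorticoid-induced leucine zipper, also known as a FOXO target, at chrX:140539528-140600659. It had 37.8, 34.6 and 44.1 CPM in KO ND livers, against 135, 105 and 86.1 CPM in WT ND livers. All KO ND libraries lay below all WT ND libraries, and Tsc22d3 fell by 1.48 ± 0.21 on the log2 scale (adjusted p = 0.00679, edgeR), a call lost without KO ND 2 (adjusted p = 0.0732, edgeR). Of 30 glucocorticoid targets and receptors, 25 were tested, with estimates above 0 for 14 and below 0 for 11 (median 0.33). Tsc22d3 was the only call with edgeR, against 0.127% of all genes, in a list chosen with earlier results of these data known. DESeq2 called 3 members higher (Fgf21, Gadd45b and Rhob) and Tsc22d3 lower. Without WT ND 1 the median was -0.15. Ddit4, an inhibitor of mTOR signalling and a known glucocorticoid target, had 3.04, 3.14 and 3.23 CPM in KO ND livers, against 11.1, 13.5 and 8.40 CPM in WT ND livers. Its groups stood apart, but the difference did not pass (log2 -1.79 ± 0.40, adjusted p = 0.128, edgeR).

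The last 3 genes that fell have unlike roles. Dock6 encodes an exchange factor for Rac and Cdc42 at chr9:21799860-21852635, and the gene of Angptl8, a feeding-induced liver hormone that restrains lipoprotein lipase, lies inside it on the other strand. Dock6 had 109.8, 81.7 and 123 CPM in KO ND livers, against 273, 320.4 and 359 CPM in WT ND livers (log2 -1.60 ± 0.28, adjusted p = 0.0365, edgeR). Angptl8 had 93.3, 57.9 and 98.3 CPM in KO ND livers, against 219, 306 and 313 CPM in WT ND livers (log2 -1.75 ± 0.35, adjusted p = 0.0867, edgeR). The groups stood apart for both, at nearly the same levels, and as for Rassf4 the strand used in counting is not given, so the reads of Dock6 and Angptl8 cannot be told apart. Slc30a10, a manganese exporter, had 19.5, 20.7 and 21.4 CPM in KO ND livers, against 69.9, 52.4 and 47.9 CPM in WT ND livers (log2 -1.46 ± 0.26, adjusted p = 0.0365, edgeR). Hexim1, which holds the elongation factor P-TEFb inactive, had 28.2, 19.3 and 29.5 CPM in KO ND livers, against 63.9, 60.9 and 53.7 CPM in WT ND livers (log2 -1.21 ± 0.21, adjusted p = 0.0365, edgeR). For Slc30a10 and Hexim1 as well, no KO ND library reached the lowest WT ND library. Slc30a10 was the only call among 27 tested metal transporters and metallothioneins (16 estimates above 0, 11 below). Hexim1 was the only one among 11 tested P-TEFb and elongation genes (3 above, 8 below, median -0.16). Of all genes 0.127% were called. Both lists were chosen with earlier results of these data known, so their counts are description only. Dock6, Slc30a10 and Hexim1 each lost the call when any 1 of the 6 chow libraries was left out (adjusted p up to 0.257, edgeR).

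The 15 genes that came next by p did not pass, with adjusted p of 0.0578 to 0.111 (edgeR), and are given as values. DESeq2 called all 15 (adjusted p of 0.000471 to 0.0164). With a term for the side of a library on the first principal component, edgeR called all but Gys2 and Angptl8. That side was read from these same counts. On chow KO ND 2, KO ND 3 and WT ND 1 shared a side, so the term is uneven between the genotypes and its calls are no independent evidence. Estimates were above 0 for 8 and below 0 for 7, and the libraries of the groups stood apart for all 15. Plin2, a coat protein of lipid droplets, had 394, 604 and 454 CPM in KO ND livers, against 201, 221 and 292 CPM in WT ND livers (log2 1.02 ± 0.20). Gys2, the liver glycogen synthase, had 165, 390.3 and 265 CPM in KO ND livers, against 95.9, 112 and 86.1 CPM in WT ND livers (log2 1.48 ± 0.29). Both were higher in every KO ND library. Npc1, which moves cholesterol out of lysosomes, averaged 146 ± 20.4 CPM in KO ND livers and 76.7 ± 2.27 CPM in WT ND livers (SD, n = 3 each). Sphk2, a sphingosine kinase whose gene overlaps that of Dbp on the other strand, had a log2 difference of 1.38 ± 0.27, which shares with that of Dbp the limit given above for reads from the overlap. Tgm1 (log2 1.44), a transglutaminase, Mcm10 (log2 1.25), a replication factor, and Ttc23 (log2 1.06) completed the higher ones with Por. Among the lower ones beside Angptl8 were Chka (log2 -1.40), a choline kinase, Tubb2a (log2 -1.41), a tubulin, Clpx (log2 -0.99), a mitochondrial chaperone subunit, Lgalsl (log2 -1.24) and Ror1 (log2 -2.11), a Wnt receptor.

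The genotype difference on chow was then set beside that on the fat diet. On the fat diet 2 genes were called between KO HFD and WT HFD, 0.0169% of those tested, and both were targeted: Cyp2b9 (log2 -8.82) and Cyp2b13. The interaction, the difference on chow minus that on the fat diet, passed for 0 genes with edgeR, while 342 (2.89%) had an unadjusted p under 0.05 and DESeq2 called 11. The genes called on chow are therefore not shown by this test to differ between diets. Among those 11 of DESeq2 were Rgs16, Prom1, Rassf4, Dbp, Dock6, Arrdc3 and Tsc22d3. Rgs16 illustrates the values behind it: on the fat diet it had 262, 375 and 138 CPM in KO HFD livers, against 132, 170.3 and 469 CPM in WT HFD livers. These overlapped (log2 0.00 ± 0.50), and the interaction was 4.02 on the log2 scale (adjusted p = 0.407, edgeR). Prom1 had 3.13, 5.09 and 2.26 CPM in KO HFD livers, against 2.32, 2.50 and 2.06 CPM in WT HFD livers, with an interaction of -3.90 (adjusted p = 0.344, edgeR). The WT HFD level of Prom1 was thus below its WT ND level. Dbp had 225, 237 and 299.8 CPM in KO HFD livers, against 168, 89.5 and 154 CPM in WT HFD livers, so KO HFD was higher in all 3 libraries (log2 0.89 ± 0.27). The interaction of Dbp was 1.82 (adjusted p = 0.407, edgeR). Cyp2a4 kept its direction on the fat diet at 1033, 1095 and 1210.0 CPM in KO HFD livers, against 436, 576 and 690.4 CPM in WT HFD livers (log2 0.97 ± 0.22; interaction 0.67, adjusted p = 0.9995, edgeR). Per3 (log2 1.39), Nrep (log2 0.81) and Slc30a10 (log2 -0.92) had fat-diet estimates of the chow sign, while Nceh1 (log2 0.08), Hexim1 (log2 -0.24), Tsc22d3 (log2 -0.06) and Arrdc3 (log2 -0.04) were near 0, and Rassf4 (log2 -0.38) and Dock6 (log2 0.55) had the opposite sign.

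**Figure D3:**
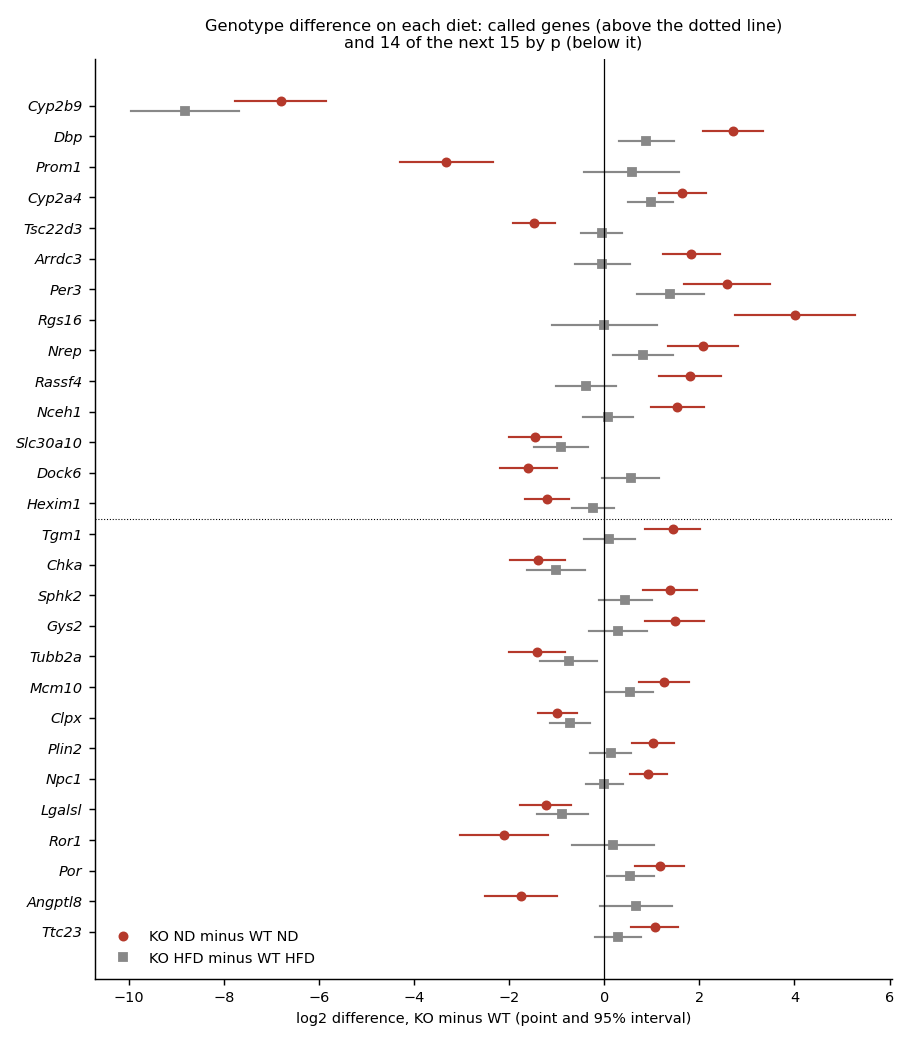
Log2 difference, KO minus WT (x axis, point and 95% interval), on normal chow and on the fat diet, for 14 of the called genes above the dotted line and 14 of the next 15 genes by p below it; Cyp2b13, at 0 counts in KO libraries, is left out. Dbp and Cyp2a4 lie above 0 on both diets, while Rgs16 is at 4.02 on chow and 0.00 on the fat diet.

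Lipid metabolism was described with lists by role, none of whose members was called unless named, and no list was tested as a set. These lists were also chosen with earlier results of these data known. Of 60 PPAR-alpha targets and fatty acid oxidation genes, 57 were tested, and 48 had estimates above 0 and 9 below it (median 0.41, against -0.02 over all genes). At an unadjusted p under 0.05 there were 20 of the 57, all higher, against 2.98% of all genes higher at that p. DESeq2 called 2, Fgf21 among them. The libraries stood apart with KO ND above for 18 and below for 1, where 5.18% and 6.1% of all genes did. By role, estimates were above 0 for 8 of 9 peroxisomal oxidation genes (median 0.59), for 17 of 18 mitochondrial ones (median 0.34), for 4 of 4 thioesterases (median 0.66) and for 4 of 8 genes of uptake and activation (median 0.01). Fgf21, a fasting-induced hormone of the liver, had 2.17, 9.88 and 12.9 CPM in KO ND livers, against 0.463, 0.998 and 0.420 CPM in WT ND livers (log2 3.66 ± 0.86, adjusted p = 0.144, edgeR). Its groups did not overlap, and it did not pass. Eci2, an enoyl-CoA isomerase, averaged 244 ± 61.8 CPM in KO ND livers and 136 ± 32.7 CPM in WT ND livers (SD, n = 3 each). Fabp1, the fatty acid binding protein of hepatocytes, averaged 7166 ± 2693 CPM in KO ND livers and 3323 ± 614 CPM in WT ND livers. On the fat diet the list's median was 0.14, with 48 of 57 estimates above 0. Medians on chow ran from 0.29 to 0.54 when the 6 chow libraries were left out in turn.

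Genes that make fatty acids and cholesterol also lay mostly above 0, and edgeR called none. DESeq2 called 2, Me1 among them. Of 26 tested genes of fatty acid and triglyceride synthesis, 20 had estimates above 0 (median 0.32) and 4 an unadjusted p under 0.05. Over all genes 6.33% had such a p. Scd1, the desaturase that makes oleate, had 8700.3, 5088 and 6086 CPM in KO ND livers, against 4334, 4083 and 4325 CPM in WT ND livers. Every KO ND library was higher, without passing (log2 0.64 ± 0.21, adjusted p = 0.49, edgeR). Me1, which supplies NADPH, averaged 172 ± 17.8 CPM in KO ND livers and 111 ± 9.04 CPM in WT ND livers (SD, n = 3 each). Of 28 cholesterol genes tested, 24 had estimates above 0 and 3 an unadjusted p under 0.05, against the same 6.33% of all genes. Among the 24 were 19 of 20 enzymes of synthesis (median 0.38 for these). The median of the 28 was 0.37 on chow and 0.01 on the fat diet. Stard4, a cholesterol carrier, averaged 169 ± 9.54 CPM in KO ND livers and 95.4 ± 19.9 CPM in WT ND livers. Insig2, which holds back SREBP processing, averaged 85.9 ± 9.80 CPM in KO ND livers and 129 ± 15.2 CPM in WT ND livers (log2 -0.59 ± 0.20). Of 24 tested genes of lipid droplets and lipolysis, 18 had estimates above 0 (median 0.16). EdgeR called 1 of them, Nceh1, against 0.127% of all genes, and DESeq2 called 2, Nceh1 and Plin2. Bile acid genes were split, 16 above 0 and 11 below (median 0.04).

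Polyunsaturated fatty acids are known substrates of Cyp2b enzymes, and the genes that handle them were listed for that reason. Of 46 listed, 32 were tested, 0 were called by edgeR and 1 by DESeq2 (Fads3). An unadjusted p under 0.05 was found for 4, against 6.33% of all genes. Estimates were above 0 for 16 and below 0 for 16 (median 0.01). All 5 desaturases and elongases had estimates above 0 (median 0.40), and 9 of 10 epoxygenases of other Cyp2 subfamilies had estimates below 0 (median -0.10). On the fat diet these epoxygenases ran from -0.05 (Cyp2c50) to 0.71 (Cyp2c39), and Cyp2c50 alone was below 0. Fads3, a desaturase family member, had 27.8, 53.9 and 34.0 CPM in KO ND livers, against 20.8, 8.98 and 16 CPM in WT ND livers (log2 1.33 ± 0.30, adjusted p = 0.128, edgeR). Its groups did not overlap.

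Of 37 tested targets of CAR and PXR, edgeR called 0 and DESeq2 called 1 (Por). An unadjusted p under 0.05 was found for 4, against 6.33% of all genes. Estimates of these targets were above 0 for 11 and below 0 for 26 (median -0.11). The receptor genes themselves, Nr1i3 and Nr1i2, were above 0, as were Por and Alas1, which supply electrons to microsomal P450s and haem (median of the 4 0.75), and 16 of 18 genes of conjugation and transport were below it (median -0.14). Among 41 other Cyp1 to Cyp4 enzymes tested, 16 were above 0 and 25 below. All 8 Cyp3a genes, which share long stretches of sequence, had estimates below 0 (median -0.63). For 2 of them every KO ND library was below every WT ND library, against 6.1% of all genes. Their fat-diet estimates ran from -0.25 (Cyp3a44) to 0.61 (Cyp3a41a), and Cyp3a44 alone was below 0. Neither tool called any of the 41, and 5 had an unadjusted p under 0.05, where 6.33% of all genes did. Of 37 liver genes that are higher in females, 21 had estimates above 0 and 16 below (median 0.05). In each direction 1 was called, Cyp2a4 higher and Prom1 lower, against 0.0676% of all genes higher and 0.0592% lower. This list, too, was chosen with earlier results of these data known. Socs2, a feedback inhibitor of growth hormone signalling, had 66.9, 211 and 114 CPM in KO ND livers, against 17.1, 29.9 and 28.1 CPM in WT ND livers. The groups stood apart without passing in edgeR (log2 2.38 ± 0.58, adjusted p = 0.251), while DESeq2 called Socs2 (adjusted p = 0.00138).

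**Figure D4:**
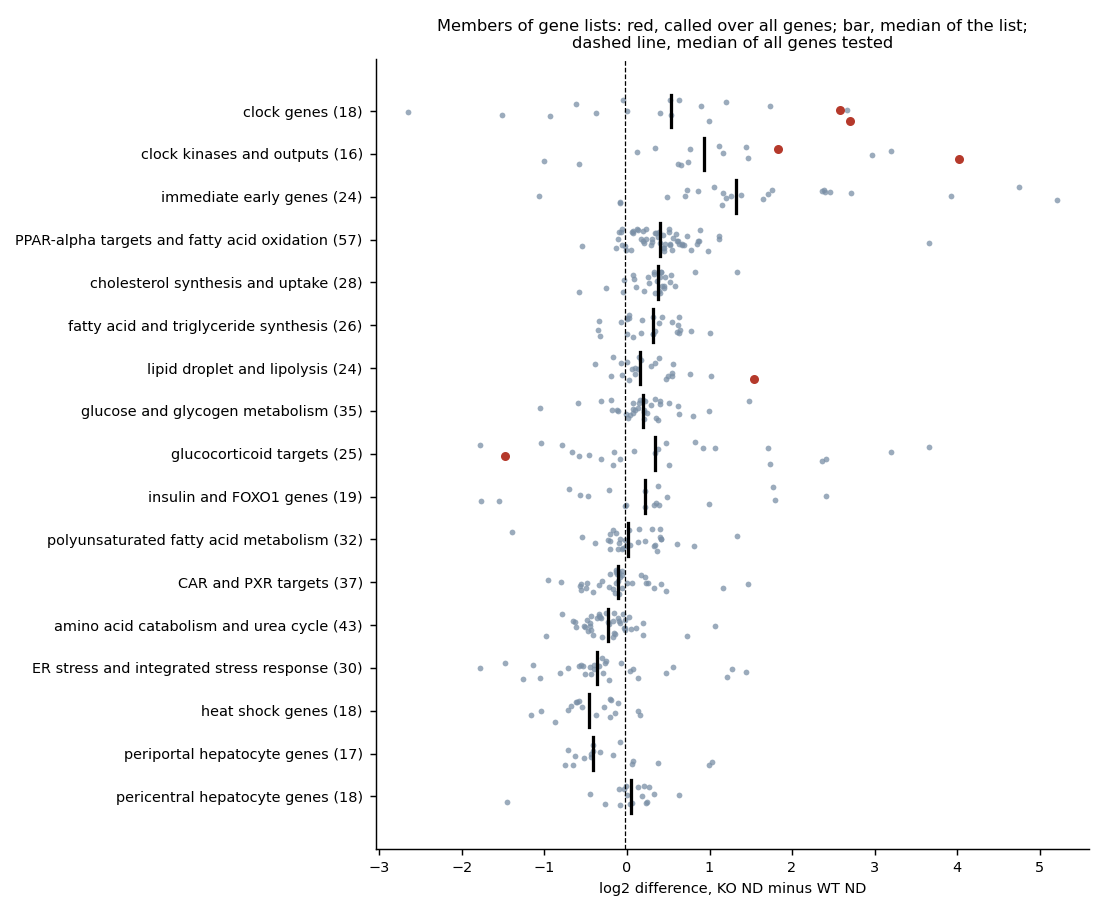
Log2 differences, KO ND minus WT ND (x axis), of the tested members of 17 gene lists (rows); each point is a gene, red points are called over all genes, bars are the medians of the lists and the dashed line is the median of all genes tested (-0.02). Immediate early genes reach highest, with a median of 1.32, and heat shock genes lie mostly left of 0, with a median of -0.46.

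Immediate early genes, transcription factors and signalling genes that switch on within minutes of a stimulus, lay mostly above 0 without any call. Of 24 tested, 21 had estimates above 0 and 3 below it (median 1.32). With edgeR 0 were called, and with DESeq2 2 (Maff and Gadd45b). An unadjusted p under 0.05 was found for 7, against 6.33% of all genes. For 17 of the 24 every KO ND library was above every WT ND library, against 5.18% of all genes, and in none below. The summed level of the 30 listed genes in the table was 2739, 3853 and 3378 CPM in KO ND livers, against 593, 1518 and 953 CPM in WT ND livers. The KO ND mean was 3.25 times the WT ND mean (exact permutation p = 0.1, two-sided, n = 3 each, the smallest that 3 against 3 allows). Because the list was chosen with earlier results of these data known, this p is no independent test of it. Maff, a small MAF factor, had 30.4, 49.9 and 40.4 CPM in KO ND livers, against 0.926, 4.49 and 2.52 CPM in WT ND livers (log2 3.92 ± 0.83, adjusted p = 0.131, edgeR). All 7 tested AP-1 genes, Atf3 counted with them, had KO ND above WT ND in every library (median 1.70). Of these, Fos and Jun were chosen here after their values were seen. Jun had 302, 595 and 581 CPM in KO ND livers, against 17.1, 144 and 65.1 CPM in WT ND livers (log2 2.71 ± 1.34). Fos had 150.2, 127 and 128 CPM in KO ND livers, against 4.17, 91.3 and 60.5 CPM in WT ND livers (log2 1.38 ± 1.42). The WT ND libraries of Fos and Jun were the more uneven ones, with WT ND 1 lowest in both. On the fat diet the list's median was 0.07, and without WT ND 1 its median on chow was 1.07. The sum moves with the genotype as the called genes do, and its part in their differences was not tested.

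Chaperones lay on the other side of 0. Estimates were below 0 for 16 of 18 heat shock genes (median -0.46) and for all 15 chaperones of the endoplasmic reticulum (median -0.56). EdgeR and DESeq2 called 0 of them. Of the 18 heat shock genes 2 had an unadjusted p under 0.05, against 6.33% of all genes. The groups overlapped for all 15 chaperones of the endoplasmic reticulum: WT ND 1, the library with the high mitochondrial share, lay below every KO ND library in 10, while WT ND 2 and WT ND 3 both lay above every KO ND library in 14. Bag3, a co-chaperone of Hsp70, had 20.4, 17.1 and 15.4 CPM in KO ND livers, against 28.7, 50.9 and 39.1 CPM in WT ND livers (log2 -1.16 ± 0.36, adjusted p = 0.426, edgeR). Its groups did not overlap. The whole list of 30 genes of the endoplasmic reticulum and integrated stress responses had a median of -0.37 on chow and -0.43 on the fat diet. Heat shock genes had -0.36 on the fat diet. The signalling genes of the list went both ways on chow. Ppp1r15a (log2 1.27 ± 0.36) and Trib3 (log2 1.45 ± 0.61) were higher in every KO ND library, and Ddit4 (log2 -1.79 ± 0.40) lower, all without passing.

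Genes of glucose and amino acid metabolism gave 0 calls by edgeR and 1 by DESeq2 (Gys2). Of 35 glucose and glycogen genes, 27 had estimates above 0 (median 0.19, and 0.04 without WT ND 1). An unadjusted p under 0.05 was found for 4 of the 35, against 6.33% of all genes. Of 43 genes of amino acid breakdown and the urea cycle, 36 had estimates below 0 (median -0.23). Among them were all 7 of the urea cycle (median -0.41), but for all 7 the groups overlapped. KO ND 1 was the highest KO ND library in each of the 7, and none of these had an unadjusted p under 0.05. An unadjusted p under 0.05 was found for 3 of the 43, near the 6.33% of all genes. Ppp1r3b, which brings protein phosphatase 1 to glycogen in the liver, had 89.4, 49.9 and 92.6 CPM in KO ND livers, against 206, 236 and 239.8 CPM in WT ND livers. No KO ND library reached the WT ND range, but Ppp1r3b, an insulin-regulated gene listed apart from these, did not pass with edgeR (log2 -1.55 ± 0.34, adjusted p = 0.128), while DESeq2 called it (adjusted p = 0.00575). Vldlr, the very-low-density lipoprotein receptor, had 11.7, 13.5 and 10.5 CPM in KO ND livers, against 24.5, 22 and 24.4 CPM in WT ND livers (log2 -0.99 ± 0.24, adjusted p = 0.177, edgeR), with no overlap. Of 17 periportal hepatocyte genes 12 had estimates below 0 (median -0.41), and of 18 pericentral ones 11 had estimates above 0 (median 0.05).

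Markers of the cell types of liver were summed per library to see what the groups hold. Hepatocyte markers summed to 90914, 123042 and 131753 CPM in KO ND livers, against 96537, 109377 and 103712 CPM in WT ND livers, so the tissue label holds in all 6. Kupffer cell and macrophage markers summed to 350.2 to 562 CPM in KO ND livers and 343 to 658 CPM in WT ND livers, and stellate cell and matrix genes to 627 to 761 CPM in KO ND livers and 625 to 734 CPM in WT ND livers. Endothelial markers summed to 413 to 527 CPM in KO ND livers and 337 to 569 CPM in WT ND livers. These ranges of the groups overlapped. Pancreatic acinar markers, 8 of 11 of them at 0 in every library, summed to 28.2 to 32.3 CPM in KO ND livers and 17.2 to 25.0 CPM in WT ND livers (exact permutation p = 0.1, the smallest possible, n = 3 each). Neutrophil markers were at 0 for 5 of 10. Transcripts of the mitochondrial genome had estimates below 0 for all 13 genes (median -0.51), and above 0 in the median without WT ND 1 (0.17).

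**Figure D5:**
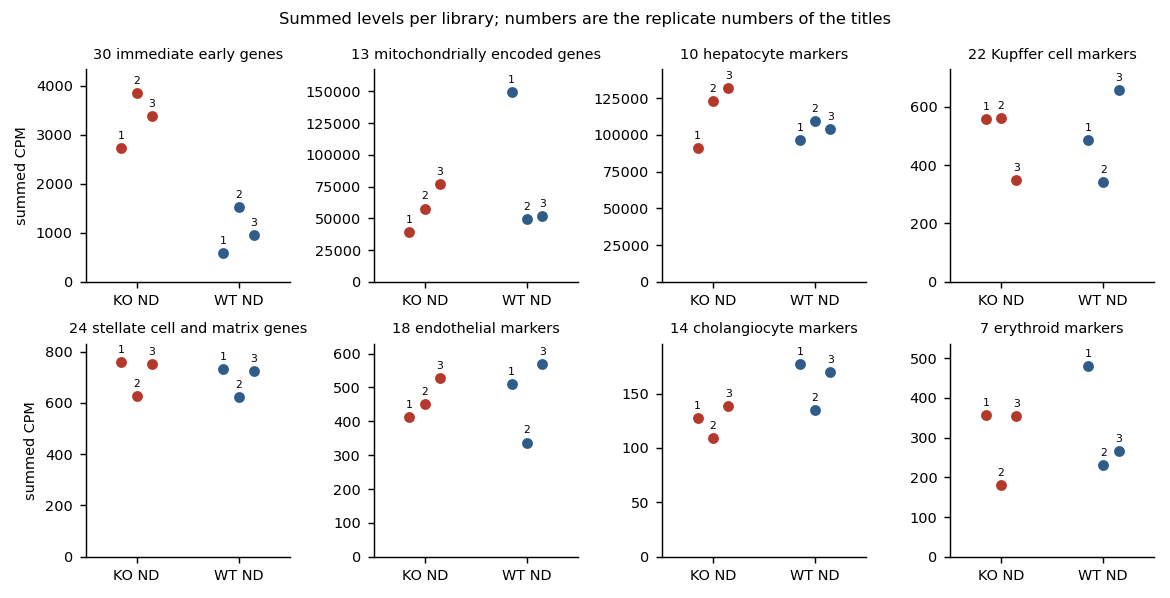
Summed levels in CPM (y axes, linear, from 0) of 8 gene groups in each KO ND and WT ND library; each point is a library, marked with the replicate number of its title. The immediate early genes are the group in which the 3 KO ND points lie far above the 3 WT ND points, and WT ND 1 lies highest for the mitochondrially encoded genes at 149469 CPM.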

How the data were processed

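RNA from female livers was extracted with Trizol and made into libraries with the NEB Next Ultra RNA kit, per the labels' protocols. The authors deposited raw counts per gene symbol, in 1 table of 12 female libraries. Per the submitters' processing notes, the build was GRCm38.p5 and the tools named are GSNAP, Subread, Trimmomatic, FastQC and edgeR. The sources used here state neither their versions and order nor the use of strand. The table held 46068 symbols, after leaving 25 that a spreadsheet had turned into dates (27 lines, at most 0.153% of a library) out of the tests.

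The 12 libraries (2005120 to 2661836 counts) were fitted together, with 1 term per group, in edgeR 4.0.16 (R 4.3.3, limma 3.58.1): TMM scaling, filterByExpr by group, robust quasi-likelihood tests, and Benjamini-Hochberg adjustment over 11830 genes, with calls at an adjusted p below 0.05. Contrasts were KO ND minus WT ND, KO HFD minus WT HFD, and the interaction. The fit was tested on simulated counts with changes of known size. All pairs of libraries in a group differed by more than sampling noise, with chi-square over its degrees of freedom at least 5.837. Floors and intervals of counts cover counting error only.

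Gene positions come from GENCODE M21 on GRCm38 and promoters from RefSeq on GRCm38.p6, matched by symbol. Lists (49, with 6 of 1223 entries unmatched) were described by counts and medians. Summed levels of marker lists and of immediate early genes were also compared by an exact permutation test. Named were the targeted genes, the Cyp2 genes around them, all called genes, the next 15 by p and, in each list, members among the 4 smallest p; a few genes of these are not reported here. The comparison and the lists were chosen with earlier results of these data known. Alternatives were RLE scaling, no filter, a filter at 20 counts, DESeq2 1.42.0, the compared groups alone, a replicate block, a term for the side of a library on the first principal component, no mitochondrially encoded genes, and leaving out each library. Figures were drawn with matplotlib 3.10.9.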

Additional observations from a re-analysis of the deposited data

How the results depend on the processing

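On chow, 15 genes were called between KO ND and WT ND. The count was 121 with no filter on low counts, 76 with DESeq2, 8 with the replicate block and 43 with a term for the library's side on the first principal component, and 5 to 26 when the 12 libraries were left out in turn (5 without WT ND 3 or KO ND 3, 7 without WT ND 1, 8 without KO ND 2, 26 without WT HFD 1). It was 15 to 21 with RLE scaling, the filter at 20 counts, the compared groups alone and without mitochondrially encoded genes. The split of higher and lower calls was 8 and 7 in the reported fit, 50 and 26 with DESeq2, 75 and 46 with no filter, and 19 and 24 with the term for sides. On the fat diet, the 2 calls became 12 with no filter, 1 with the term for sides and 2 to 4 with libraries left out. For the interaction, the count of 0 became 23 with no filter, 11 with DESeq2, 2 with the term for sides (Arrdc3 and Scd1) and 0 to 1 with libraries left out. The causes of these shifts were not tested. DESeq2 calls given above for single lists stand beside its 76 calls over all genes.

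All 15 genes kept their direction in the 20 alternatives. Dbp, Cyp2a4, Cyp2b9 and Cyp2b13 kept the call without each chow library and under the 8 other settings. The replicate block ended the calls of Slc30a10, Nceh1, Per3, Rassf4, Dock6, Hexim1, Arrdc3 and Nrep. No label says what the replicate number marks. Deviations of same-numbered KO ND and WT ND libraries had correlations of -0.3745 to -0.1668, which cannot show whether the number marks a shared batch. The fit of the compared groups alone ended the calls of Nceh1, Per3 and Hexim1, and the term for sides that of Rgs16 (adjusted p = 0.107, edgeR). Directions reversed for Cyp2g1 without KO ND 1 (range with libraries left out -0.149 to 0.51), and for Txn1 with the term for sides (-0.0581) and without WT ND 2, WT ND 3 or KO ND 3 (range -0.034 to 0.31).

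With 3 libraries a group at this depth, low transcripts such as Cyp2b10, Per3 and Prom1 rest on few counts, and a missed threshold does not show equal levels.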
